A study of Mus musculus with 24 samples.

Results

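Livers of hypothyroid mice whose thyroid hormone receptor beta (TRβ) carries the E125G and G126S changes (GS) were compared with wild-type (WT) livers 6 h after an injection of triiodothyronine (T3), to find which genes had not reached the wild-type level and which had reached or passed it. The comparison rests on the 3 GS arrays and the 3 WT arrays after T3, 6 of the 24 arrays in the series, and covers 14156 genes. WT and GS mice were males of 8 to 9 weeks on a C57BL/6J background, made hypothyroid over 3 weeks by drinking water with 0.5% perchlorate, 0.02% methimazole and 0.3% saccharin and by an iodine-poor diet. T3 was injected intraperitoneally at 20 µg per 100 g body weight. The control groups of the same genotypes, also taken 6 h after injection, are those titled PBS. Livers without TRβ (KO), kept and treated the same way, gave a further group of 3 arrays after T3 that is used below. A further genotype, TRβ with the Y147F change, came from mice with other settings (C57BL/6JCrl males of 10 to 11 weeks, 0.05% methimazole, 1% perchlorate). These mice got T3 at 200 ng per g, which is the same dose as 20 µg per 100 g. Their 3 T3 and 3 PBS arrays were used to choose T3-responsive genes, by a difference of means without the arrays compared. The spread of each gene was estimated from all 24 arrays, so this choice and the comparison share that estimate. All groups were hypothyroid before the injection, so the WT level is that of a hypothyroid mouse given a single dose.

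TRβ is a nuclear receptor and the main T3 receptor of hepatocytes. With its partner RXR it sits on response elements in DNA, represses target genes without hormone and activates them once T3 is bound, and it can also act on signalling outside the nucleus. In liver it is known for driving T3 metabolism (Dio1), lipogenesis (Thrsp, Me1), mitochondrial oxidation (Gpd2) and bile acid synthesis (Cyp7a1). E125G and G126S lie in the part of the DNA-binding domain that reads the response element, and the mutant was made to lose binding to DNA. Y147F changes a tyrosine outside that part.

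The response element is built from copies of the letters AGGTCA. Promoter windows of 250 bases before the start of transcription (RefSeq, GRCm38.p6) were found for 34 of 47 genes that had the largest differences or belonged to a list of known hepatic T3 targets, and 6 of those 34 held AGGTCA on either strand. Across all genes 14% of 32851 such windows held it, and 11.8% of the 14464 windows of genes tested. The 6 of 34 are genes with a match in any window, and a gene can have several windows. That count is therefore not on the scale of the shares of windows. Among T3-raised genes (defined below) it was in 35 of 278 windows of genes that fell short of WT in GS (12.6%) and in 58 of 596 windows of the others (9.73%). A direct repeat of AGGTCA with 4 bases between the copies occurred in 5 windows of all genes and in 0 windows of T3-raised genes. The windows of the 3 genes with the letters and a called difference are shown because the other genes with the letters (Cpt1a, G6pc and Thrb) had no called difference; capitals mark AGGTCA or, on the other strand, TGACCT.
Sult2a8: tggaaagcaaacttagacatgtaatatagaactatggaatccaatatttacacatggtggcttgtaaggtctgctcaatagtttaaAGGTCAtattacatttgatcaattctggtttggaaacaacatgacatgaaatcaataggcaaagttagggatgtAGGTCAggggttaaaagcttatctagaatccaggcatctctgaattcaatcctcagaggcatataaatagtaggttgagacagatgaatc
Etfbkmt: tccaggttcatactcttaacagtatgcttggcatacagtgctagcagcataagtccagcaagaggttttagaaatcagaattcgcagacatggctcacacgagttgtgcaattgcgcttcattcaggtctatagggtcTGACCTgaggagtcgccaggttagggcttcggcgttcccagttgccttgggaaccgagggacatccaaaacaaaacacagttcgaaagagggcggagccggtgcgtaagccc
Slco1a1: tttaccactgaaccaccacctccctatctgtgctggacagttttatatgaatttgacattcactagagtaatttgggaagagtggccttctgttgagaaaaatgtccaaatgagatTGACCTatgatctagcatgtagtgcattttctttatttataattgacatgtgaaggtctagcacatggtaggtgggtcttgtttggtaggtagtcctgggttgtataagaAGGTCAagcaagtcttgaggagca
The Sult2a8 window is chr7:14438552-14438801 on the minus strand and holds AGGTCA at positions -164 and -90 before the start. The Etfbkmt window is chr6:149141263-149141512 on the plus strand, with TGACCT at -112. The Slco1a1 window is chr6:141946963-141947212 on the minus strand, with TGACCT at -134 and AGGTCA at -24. All 3 genes were higher in GS than in WT after T3 (values below). A match of letters is a description of the window and not of binding.

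All values are log2 RMA intensities as deposited, and a difference of 1 is a 2-fold change in intensity; levels are not compared between genes, since each probe set has its own brightness. The 24 arrays were alike in level (medians 5.88 to 6.00), and within a group the lowest correlation between arrays was 0.9936 to 0.9964. The probe sets of Thrb gave 6.85, 6.38 and 6.76 in WT after T3 and 6.81, 6.82 and 6.95 in GS, a difference of 0.20 ± 0.17 (SE; limma adjusted p = 0.601). KO livers gave 7.11, 6.95 and 6.82 with the same probe set. A point change leaves the transcript in place and no source used here says where the deleted part of the KO allele lies relative to the probes, so this gene checks neither label. Thra, the gene of the other T3 receptor, differed by 0.09 ± 0.12 (limma adjusted p = 0.739).

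After T3, 794 of 14156 genes differed between GS and WT (5.61%; limma on all 24 arrays, Benjamini-Hochberg adjusted p under 0.05). GS livers were higher for 427 genes (3.02%) and lower for 367 (2.59%), of which 33 and 35 differed at least 2-fold. This balance was not stable: lower calls were the more numerous after quantile normalisation (376 higher, 434 lower), with the title covariate (326 and 346) and without any 1 of 4 arrays, GS replicate 1 (241 and 283), GS replicate 3 (208 and 232), WT replicate 2 (174 and 209) or WT replicate 3 (210 and 239). The 3 GS arrays lay wholly on one side of the 3 WT arrays for 782 of the 794; over all genes tested the GS arrays lay wholly above for 15.4% and wholly below for 9.45%. For 12389 genes (87.5%) no difference was called and its 95% interval lay within 1.5-fold, and the median difference over all genes was 0.03. Without one array at a time the count was 383 to 526, which is more than 1.5 times lower in each case: 524, 526 and 440 without GS replicates 1, 2 and 3, and 511, 383 and 449 without WT replicates 1, 2 and 3. Each such fit has 1 sample fewer. Of the 794 genes, 265 were called in all 6 of these fits and 87 in 0, so losses of a call in these fits are given below with the genes. The labels do not say that arrays of a group came from separate animals, although each title carries its own number, so p-values measure the spread between these samples. In whole liver a lower level can come from fewer cells of a type or from less RNA per cell, which cannot be told apart here.

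The genes furthest below WT were mostly genes that T3 raises. Dio1, the type 1 deiodinase that converts thyroxine to T3, measured 11.33, 10.92 and 11.67 in WT after T3 and 8.86, 7.81 and 8.19 in GS after T3. The GS arrays were all below the WT arrays, by 3.02 ± 0.28 (8.11-fold; limma adjusted p = 1.29e-06). Without hormone, Dio1 measured 5.06, 4.49 and 4.50 in WT, near the array background, and 6.13, 6.16 and 5.03 in GS. Mutant livers thus started higher (1.09 ± 0.28, limma adjusted p = 0.0374) and ended lower. Frmd8, which encodes a FERM-domain protein, showed the same order: WT went from 7.94, 8.22 and 8.30 to 11.18, 11.49 and 11.42, while GS measured 9.05, 9.07 and 9.03 without and 9.26, 9.32 and 9.10 with T3. Its shortfall was 2.14 ± 0.18 (limma adjusted p = 3.29e-07), and the GS arrays after T3 lay just above those after PBS. Bcl3, a nuclear member of the IκB family, measured 10.27, 10.09 and 10.13 in WT and 8.52, 8.55 and 8.50 in GS after T3, lower by 1.64 ± 0.17 (limma adjusted p = 4.72e-06). Its GS arrays after PBS (8.25, 8.28 and 8.84) overlapped those after T3, whereas WT after PBS lay at 6.91, 7.61 and 7.52.

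**Figure D1:**
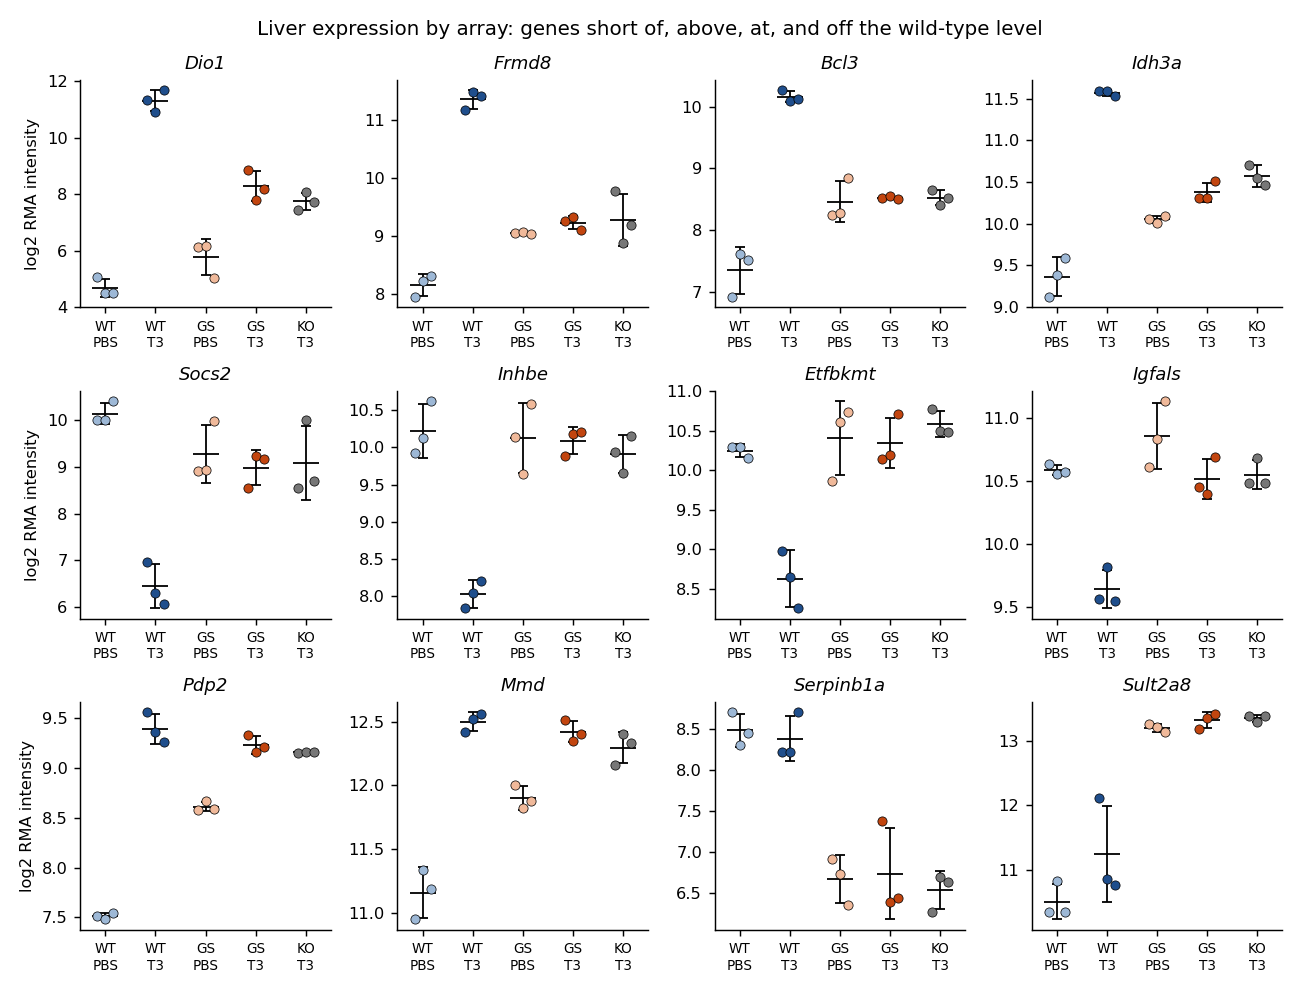
Log2 RMA intensity (vertical axes, each on its own range, not starting at 0) of 12 genes in the 3 arrays of each group; points are arrays, the dash is the mean and the bar 1 SD. In the top row GS after T3 stays below WT after T3 (Dio1 by 3.02), in the middle row above it (Socs2 by 2.55), Pdp2 and Mmd lie within 0.16 of it, and Serpinb1a and Sult2a8 differ from WT with and without T3.

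Other large shortfalls differed in how far GS had moved from the hypothyroid WT level. Anks1, an ankyrin-repeat adaptor, measured 9.07, 9.07 and 8.98 in WT and 7.76, 7.73 and 7.74 in GS after T3, against 7.74, 7.75 and 7.82 in WT after PBS; the shortfall was 1.30 ± 0.10 (limma adjusted p = 1.03e-07). Sned1 was lower by 1.32 ± 0.13, with GS arrays at 6.62, 7.02 and 6.66 against WT arrays at 8.24, 8.02 and 7.99, and WT after PBS at 6.26, 6.13 and 5.90. Cnmd (chondromodulin) was lower by 1.42 ± 0.17 and Fzd8, a Wnt receptor, by 1.20 ± 0.14. Abtb2 was lower by 1.58 ± 0.19, although its 3 probe sets ranged from -1.58 to -0.11. Gng10, a G protein gamma subunit, was lower by 1.68 ± 0.21, and it was lower after PBS too (-0.81, limma adjusted p = 0.0363). The uncharacterised 9030619P08Rik reached 9.93, 8.33 and 9.47 in GS and 10.65, 10.57 and 10.50 in WT. It was lower by 1.33 ± 0.26, so GS stood far above the PBS level of 6.09 to 6.31 in WT without reaching the WT level after T3. The GS minus WT difference changed by -2.02 between PBS and T3, so GS had been above WT after PBS. Ighm, the immunoglobulin mu heavy chain of B cells, was lower by 1.63 ± 0.30 on the probe set used, while its 11 probe sets ranged from -1.63 to 0.28. These calls held in each fit without 1 of the 6 arrays. Cyp26a1, which degrades retinoic acid, was lower by 1.33 ± 0.35 (limma adjusted p = 0.0296), and this call was kept only without WT replicate 2.

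A list of 19 hepatic T3 targets, chosen with earlier results of these data known, gave 18 tested genes, of which 8 were lower (2.59% of all genes were), 1 was higher and 9 were not called; the list's median was -0.38. In T3 metabolism Dio1 is described above. In the TCA cycle Idh3a, a subunit of isocitrate dehydrogenase, measured 11.59, 11.59 and 11.53 in WT and 10.31, 10.31 and 10.51 in GS, lower by 1.19 ± 0.11 (limma adjusted p = 6.71e-07). GS was above WT for this gene before hormone (0.69, limma adjusted p = 0.000576). Gpd2, the mitochondrial glycerol phosphate dehydrogenase, fell short by only 0.50 ± 0.14 (limma adjusted p = 0.0392), and GS had been 1.41 above WT after PBS (limma adjusted p = 5.11e-06).

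Of the lipogenic targets 3 were lower and 3 were not called. Srebf1, the master regulator of fatty acid synthesis, was lower by 0.93 ± 0.13 (13.48, 13.63 and 13.55 in WT, 12.82, 12.41 and 12.65 in GS). Mlxipl, the carbohydrate response factor ChREBP, was lower by 0.62 ± 0.12. Thrsp, the Spot 14 regulator of lipogenesis, measured 14.55, 14.55 and 14.56 in WT and 13.77, 13.60 and 13.72 in GS, a difference of -0.86 ± 0.25 (limma adjusted p = 0.0485). Fasn differed by -1.15 ± 0.37 with an adjusted p of 0.0754 in limma, and Acaca by -0.17 ± 0.28. Me1, malic enzyme, measured 12.98, 12.66 and 13.44 in WT and 13.23, 13.21 and 13.13 in GS, a difference of 0.16 ± 0.22 in overlapping groups. Cyp7a1, which sets the rate of bile acid formation from cholesterol, measured 11.77, 12.10 and 11.96 in WT and 10.35, 10.09 and 10.82 in GS, a difference of -1.52 ± 0.43 (limma adjusted p = 0.0416). The calls of Thrsp, Gpd2 and Cyp7a1 were lost in all 6 fits without 1 array, at limma adjusted p of 0.0903 to 0.133, 0.0589 to 0.153 and 0.0583 to 0.139.

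No shortfall was called among the targets of gluconeogenesis and fasting. The change with T3 in WT is not given for the genes of this paragraph. A gene that T3 did not move in WT could show no shortfall, so a missing call does not show a T3 response in GS. G6pc differed by -0.26 ± 0.21, Pck1 by 0.10 ± 0.15 and Cpt1a by 0.34 ± 0.12, none of them called. Klf9, a direct T3 target in many cells, differed by 0.31 ± 0.12 (limma adjusted p = 0.139), with GS at 13.53, 13.44 and 13.38 and WT at 13.13, 13.26 and 13.03. Slc16a10, a transporter of T3, differed by -0.23 ± 0.14, and Hr, the hairless corepressor, measured 6.44 to 6.57 in WT and 6.47 to 6.58 in GS. Fgf21, a fasting hormone, was higher by 0.96 ± 0.22 (limma adjusted p = 0.0136), a call lost without GS replicates 1 and 3 or WT replicate 2 (adjusted p up to 0.0777 in limma).

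Genes called for T3 against PBS in Y147F livers were then followed as sets. A gene that T3 moves in WT but not in Y147F livers is outside these sets. The shares below therefore do not cover all genes that respond to T3 in WT. In Y147F livers T3 raised 782 of the tested genes (5.52%) and lowered 862 (6.09%). Of the 782 T3-raised genes, 233 were lower in GS than in WT after T3 (29.8%, against 2.59% of all genes), 4 were higher (0.512%), 478 were not called and had an interval within 1.5-fold of WT (61.1%), and 67 were not resolved (8.57%). Their median difference was -0.17 against 0.03 over all genes. Of the 862 T3-lowered genes, 168 stayed above WT (19.5%, against 3.02% of all genes), 3 were below WT, 588 lay within 1.5-fold (68.2%) and 103 were not resolved (11.9%); the median was 0.16. Without WT replicate 2 the 168 became 86, without WT replicate 3 92, without GS replicate 1 95 and without GS replicate 3 102. Of all genes tested, 87.5% lay within 1.5-fold. The median T3 change of the raised set was 0.46 in Y147F, 0.44 in WT and 0.09 in GS livers. For the lowered set it was -0.41, -0.29 and -0.05. These medians are smaller than 1.5-fold, so lying within 1.5-fold cannot show that a gene of these sets responded in GS. The Y147F and GS calls share 1 estimate of spread per gene, and its part in these shares was not tested.

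**Figure D2:**
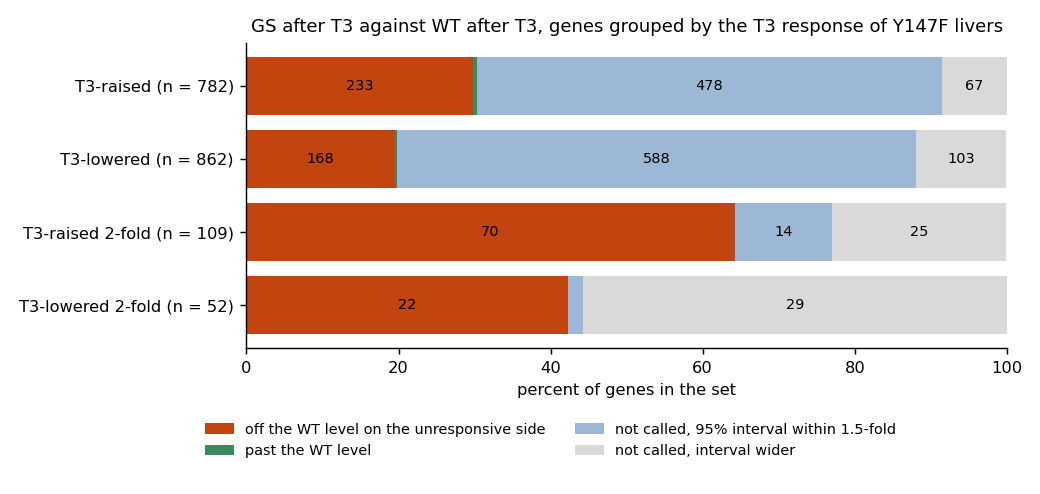
Share of genes (horizontal axis, percent) in each outcome of GS against WT after T3, for the genes that T3 raised or lowered in Y147F livers, all of them or those that changed at least 2-fold there; numbers in the bars are genes. Of the strong responders 70 of 109 raised and 22 of 52 lowered genes were off the WT level.

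Of the 109 genes that T3 raised at least 2-fold in Y147F livers, 70 were lower in GS (64.2%), 0 were higher, 14 lay within 1.5-fold (12.8%) and 25 were not resolved; the median was -0.60. Of the 52 genes lowered at least 2-fold, 22 stayed above WT (42.3%), only Trim80 lay within 1.5-fold and 29 were not resolved; the median was 0.76. The median level of the 70 short genes was 8.17 in WT without and 9.96 in WT with T3, and 8.72 and 8.99 in GS. In KO livers after T3 it was 9.11. For 67 of the 70 the GS mean after T3 was above the WT mean after PBS, and for 59 above the GS mean after PBS. The 22 genes that stayed high had median levels of 9.08 and 7.69 in WT and 8.97 and 8.93 in GS, and 9.05 in KO after T3. In the raised set the GS level before hormone was elevated for many genes: 157 of the 782 genes were higher in GS than in WT after PBS, against 1.97% of all genes, and 58 of the 109 strong ones.

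Seen from the other side, 233 of the 367 genes lower in GS were T3-raised (63.5%, against 5.52% of all tested genes), 3 were T3-lowered and 131 were neither. Of the 427 genes higher in GS, 168 were T3-lowered (39.3%, against 6.09%), 4 were T3-raised and 255 were neither; for 179 of these the unadjusted p in Y147F was over 0.05.

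**Figure D3:**
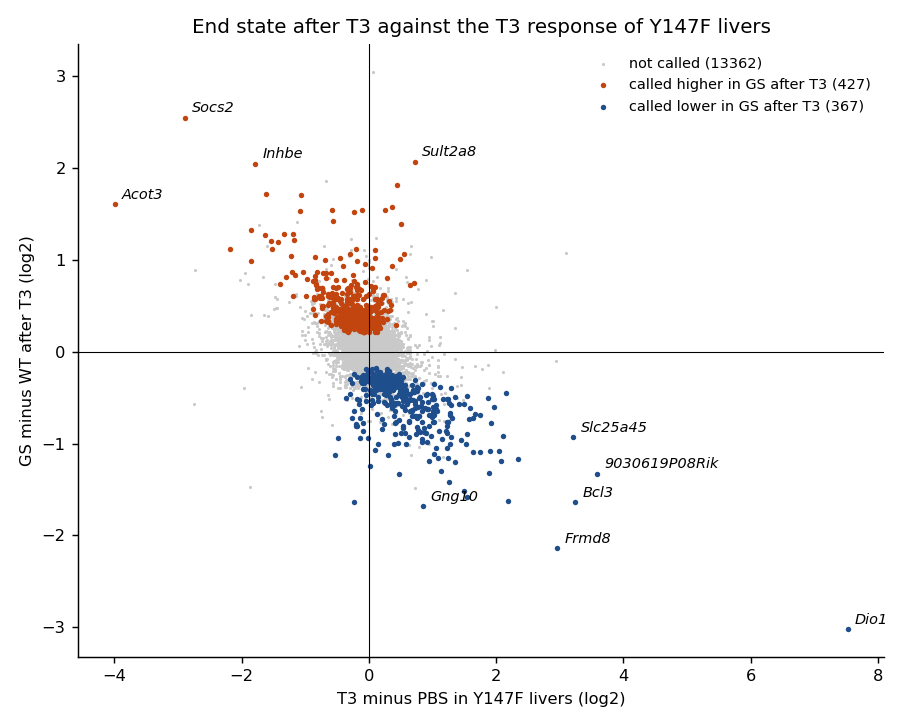
Each point is 1 of 14156 genes; the horizontal axis is T3 minus PBS in Y147F livers (log2) and the vertical axis GS minus WT after T3 (log2). Genes called lower in GS (blue) lie mostly to the right, with Dio1 at 7.52 and -3.02, and strongly T3-lowered genes such as Socs2 (-2.89 and 2.55) lie at the upper left, beside called genes near 0 on the horizontal axis.

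Among the T3-raised genes that lay within 1.5-fold of WT were enzymes and adaptors whose T3 response was seen in Y147F livers. Their level in GS after T3 does not by itself show a T3 response of GS. Pdp2, a pyruvate dehydrogenase phosphatase, measured 9.56, 9.36 and 9.26 in WT and 9.33, 9.16 and 9.21 in GS, a difference of -0.16 with a 95% interval of -0.33 to 0.00. Mmd differed by -0.08 (interval -0.28 to 0.11), with GS at 12.51, 12.35 and 12.40 and WT at 12.42, 12.52 and 12.56. Abhd6, a monoacylglycerol hydrolase, differed by -0.02 (-0.30 to 0.25), Letm1, a mitochondrial cation carrier, by 0.16 (-0.01 to 0.34), Dock8 by 0.07 (-0.22 to 0.36) and Osgin1 by -0.14 (-0.56 to 0.29). In Pdp2, Mmd, Abhd6, Letm1, Dock8 and Osgin1 GS had been above WT before hormone: by 1.10 for Pdp2, 0.74 for Mmd, 0.73 for Abhd6, 1.23 for Letm1, 0.87 for Dock8 and 1.01 for Osgin1, each called by limma. The kinase Pim1 (0.02, interval -0.54 to 0.58) also lay within 1.5-fold, and its PBS difference of 0.51 was not called.

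Only 4 T3-raised genes passed the WT level, and they are named because they are all of that class: Hopx by 0.46 ± 0.10, Mmd2 by 0.75 ± 0.20, Spp2 by 0.29 ± 0.07 and Sult5a1 by 0.73 ± 0.19. Mmd2 measured 9.44, 9.30 and 8.79 in GS and 8.24, 8.40 and 8.64 in WT. All 4 were also higher in GS after PBS, by 0.43, 1.80, 0.46 and 1.01. Hopx was called in all 6 fits without 1 array, and Mmd2, Spp2 and Sult5a1 in 2 of them. The 3 T3-lowered genes below the WT level were Echdc3 (-0.30), Fads6 (-0.24) and Zfp229 (-0.50); Echdc3 and Fads6 were also lower after PBS, by -0.44 and -0.27, and Zfp229 differed there by -0.02. The call of Fads6 was kept in 1 of the 6 fits without 1 array.

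T3-lowered genes that stayed high were led by Socs2, the feedback inhibitor of growth hormone signalling. It measured 6.96, 6.30 and 6.05 in WT after T3 and 8.55, 9.24 and 9.16 in GS, higher by 2.55 ± 0.42 (5.85-fold; limma adjusted p = 0.000728). WT after PBS lay at 10.01, 10.01 and 10.41, so GS after T3 stood between the WT groups. The GS minus WT difference changed by 3.42 between PBS and T3, which exceeds 2.55, so GS had been below WT after PBS. The distance of GS from WT after PBS is thus not the T3 response of GS. The 6 probe sets of Socs2 ranged from -0.05 to 2.79. Inhbe, which encodes the activin E subunit, measured 7.84, 8.05 and 8.21 in WT and 9.88, 10.18 and 10.21 in GS, higher by 2.05 ± 0.20, and its GS arrays after T3 lay in the range of the GS arrays after PBS (9.64 to 10.58). Etfbkmt, a mitochondrial lysine methyltransferase, was higher by 1.72 ± 0.22, with GS at 10.14, 10.19 and 10.71 and WT at 8.97, 8.65 and 8.25. Alas1, the first enzyme of heme synthesis, was higher by 1.53 ± 0.30. Acot3, an acyl-CoA thioesterase whose change with T3 in Y147F livers was -3.99, measured 11.10, 9.32 and 10.63 in GS and 8.88, 8.41 and 8.92 in WT. Its difference of 1.61 ± 0.45 (limma adjusted p = 0.0424) was called only without GS replicate 2 when single arrays were left out.

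The starting point could be set beside the end state. After PBS, 418 genes differed between GS and WT (2.95%), 279 higher and 139 lower. These arrays are not those of the T3 comparison, and 121 genes were called in both, 15.2% of the T3 calls and 28.9% of the PBS calls. Of them 43 were higher in both, 22 lower in both, 53 higher after PBS and lower after T3, and 3 the reverse. Across genes the Pearson correlation of the differences was 0.11; genes are not independent replicates. The test of the difference between the T3 and PBS differences, which uses the same arrays, called 170 of the 233 short genes. It also called 62 of the 168 that stayed high. Over all genes it called 2.92% (1.96% with a negative and 0.968% with a positive change). The 233 and 168 genes were chosen by a called difference after T3, which is part of the change tested. A change of that sign was therefore favoured in advance.

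The 53 genes that went from above to below WT include Dio1, Frmd8, Bcl3 and Idh3a. Bmf, a pro-apoptotic BH3-only gene, measured 7.46, 7.54 and 7.0 in WT and 8.67, 8.91 and 8.53 in GS after PBS, then 10.25, 9.91 and 9.79 in WT and 9.15, 8.59 and 8.71 in GS after T3. Its differences were 1.37 after PBS and -1.17 ± 0.25 after T3 (limma adjusted p = 0.00235 and 0.00686). Ankrd33b went from 0.87 to -1.09, and Slc25a45, a mitochondrial carrier, from 1.15 to -0.93. For Bmf, Ankrd33b and Slc25a45 the change between the differences was -2.54, -1.96 and -2.09 (limma adjusted p = 0.000126, 5.91e-06 and 8.46e-07). These genes were chosen for their opposite signs, so a change between the differences was built in. The 3 genes of the reverse order, named as all of their class, were Chdh (-0.33 after PBS, 0.29 after T3), Erlin1 (-0.36 and 0.40) and Nek4 (-0.29 and 0.43). The T3 call of Chdh was lost in all 6 fits without 1 array.

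**Figure D4:**
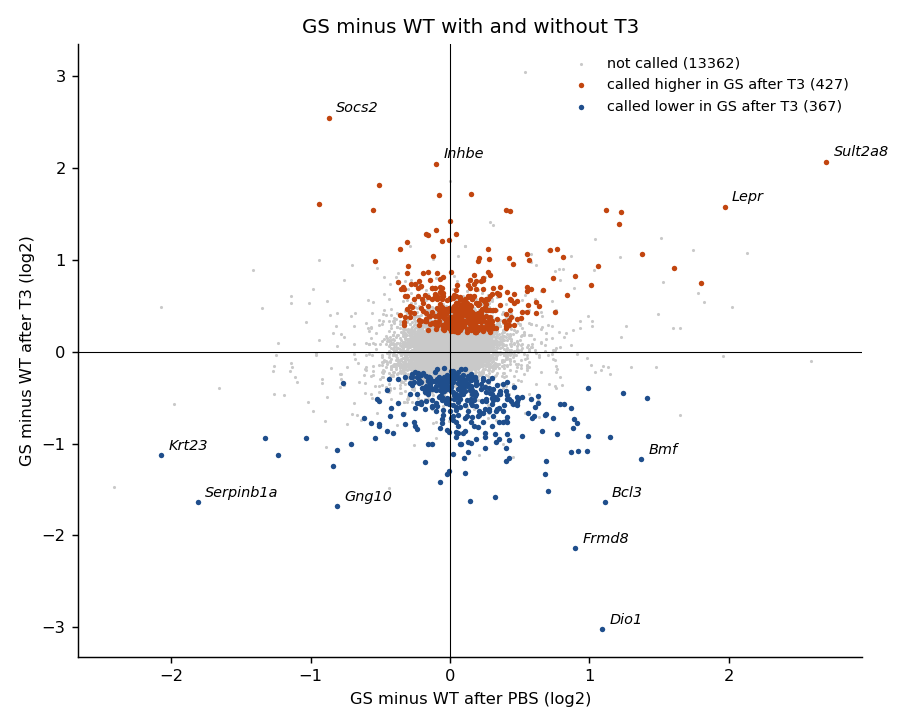
GS minus WT after PBS (horizontal, log2) against GS minus WT after T3 (vertical, log2) for 14156 genes, with those called after T3 coloured. Dio1, Frmd8, Bcl3 and Bmf lie at the lower right, higher before and lower after hormone, while Serpinb1a and Sult2a8 lie near the diagonal, at -1.81 and -1.64 and at 2.70 and 2.07.

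Some large differences were in genes with no called T3 response in Y147F livers, and several were also called before hormone. Serpinb1a, an inhibitor of neutrophil proteases, measured 8.22, 8.22 and 8.70 in WT and 7.38, 6.39 and 6.44 in GS after T3, lower by 1.64 ± 0.24. After PBS it was lower by 1.81, and KO livers after T3 measured 6.27, 6.69 and 6.64. Sult2a8, a sulfotransferase whose promoter is shown above, measured 12.11, 10.86 and 10.77 in WT and 13.19, 13.36 and 13.42 in GS after T3, higher by 2.07 ± 0.33, and by 2.70 after PBS. The galectin Lgals1 was lower by 1.13 ± 0.17 after T3 and by 1.23 after PBS. The hepcidin gene Hamp2 was lower by 1.07 ± 0.18 and by 0.81. Hectd2os was lower by 1.25 ± 0.17 and by 0.84, and Hectd2 by 1.01 ± 0.20 after T3 with a PBS difference of -0.71 that was not called. Krt23, a keratin, was lower by 1.13 ± 0.28 after T3 and 2.07 after PBS, though the T3 call was lost without GS replicate 3 or WT replicates 2 and 3 (adjusted p up to 0.11 in limma). Serpina11 was higher by 1.12 ± 0.19 and 0.77, and Lepr, the leptin receptor, by 1.58 ± 0.41 and 1.97. Slco1a1, a bile acid and organic anion carrier, was higher by 1.39 ± 0.39 (limma adjusted p = 0.0416), with GS at 11.24, 11.96 and 12.22 and WT at 10.64, 10.26 and 10.33. The Lepr call was lost without GS replicates 2 and 3 or WT replicates 1 and 2, and that of Slco1a1 in every fit but the one without GS replicate 1.

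Other genes outside the T3-responsive sets of Y147F livers were called after T3 and not after PBS. In WT livers 3 of them fell after T3, with log2 differences from PBS of -1.29 for G0s2, -1.50 for Cd24a and -1.49 for Scara3 (limma adjusted p = 0.0379, 0.0272 and 0.0115), and these WT responses share the WT arrays after T3 with the GS comparison. G0s2, an inhibitor of lipolysis, was higher by 1.71 ± 0.39 (limma adjusted p = 0.0131), a call lost without GS replicate 3 or WT replicate 2 (adjusted p up to 0.0822 in limma); its change with T3 in Y147F livers was -1.06 (limma adjusted p = 0.0867). Nlrp12 was higher by 1.55 ± 0.28, with GS at 10.23, 10.83 and 10.31 and WT at 8.63, 8.97 and 9.12. For Cd24a, a surface glycoprotein, and Scara3, a scavenger receptor, the T3 and PBS differences themselves differed, by 2.34 and 2.10 (limma adjusted p = 0.0393 and 0.0331). Both genes were chosen by the size of the T3 difference, which is part of that change. Cd24a measured 5.74, 5.61 and 5.88 in WT and 7.58, 8.08 and 7.04 in GS after T3, higher by 1.82 ± 0.43 (limma adjusted p = 0.0155), with a PBS difference of -0.51 that was not called. KO livers after T3 measured 5.66, 6.20 and 6.72. Scara3 was higher by 1.55 ± 0.38, with GS at 6.73, 6.87 and 6.36 and WT at 5.38, 4.93 and 4.99. The call of Cd24a was lost without GS replicate 2 or WT replicate 2, and that of Scara3 without GS replicates 1 and 2 or WT replicates 2 and 3, at adjusted p up to 0.0749 and 0.0738 in limma.

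Pathway lists, chosen with earlier results of these data known, showed where the calls fell. Over all genes tested 2.59% were called lower and 3.02% higher, with a median of 0.03, and each list's counts stand against these shares. In mitochondrial oxidation and its control 8 of 27 genes were lower and 0 higher (median -0.10): beside Gpd2 and Idh3a these were Cs (citrate synthase, -0.40), Pdhb (pyruvate dehydrogenase beta, -0.65), Pdk2 (-0.49), the coenzyme Q-binding Coq10a (-0.60) and Coq10b (-0.61), and Ppargc1a, the coactivator PGC-1α (-0.88). Pdk2 is a kinase that inhibits pyruvate dehydrogenase, and Pdhb is a subunit of that enzyme. Cs was called in 2 of the 6 fits without 1 array and Coq10b in 1. Coq10a was called in all 6, but with the mean of its probe sets it differed by -0.12 (limma adjusted p = 0.402). Of 25 subunits of oxidative phosphorylation none was called by limma, with 2 at an unadjusted p under 0.05 and a median of 0.05. In fatty acid and triglyceride synthesis 5 of 22 were lower (2.59% of all genes) and 0 higher (median -0.33): Thrsp, Srebf1, Mlxipl, Agpat2 (-0.93 ± 0.12) and Dgat2 (-0.31 ± 0.07), which make phosphatidic acid and triglyceride. Dgat2 was called in 5 of the 6 fits without 1 array. Agpat2 measured 12.77, 12.67 and 12.73 in WT and 12.01, 11.74 and 11.64 in GS.

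**Figure D5:**
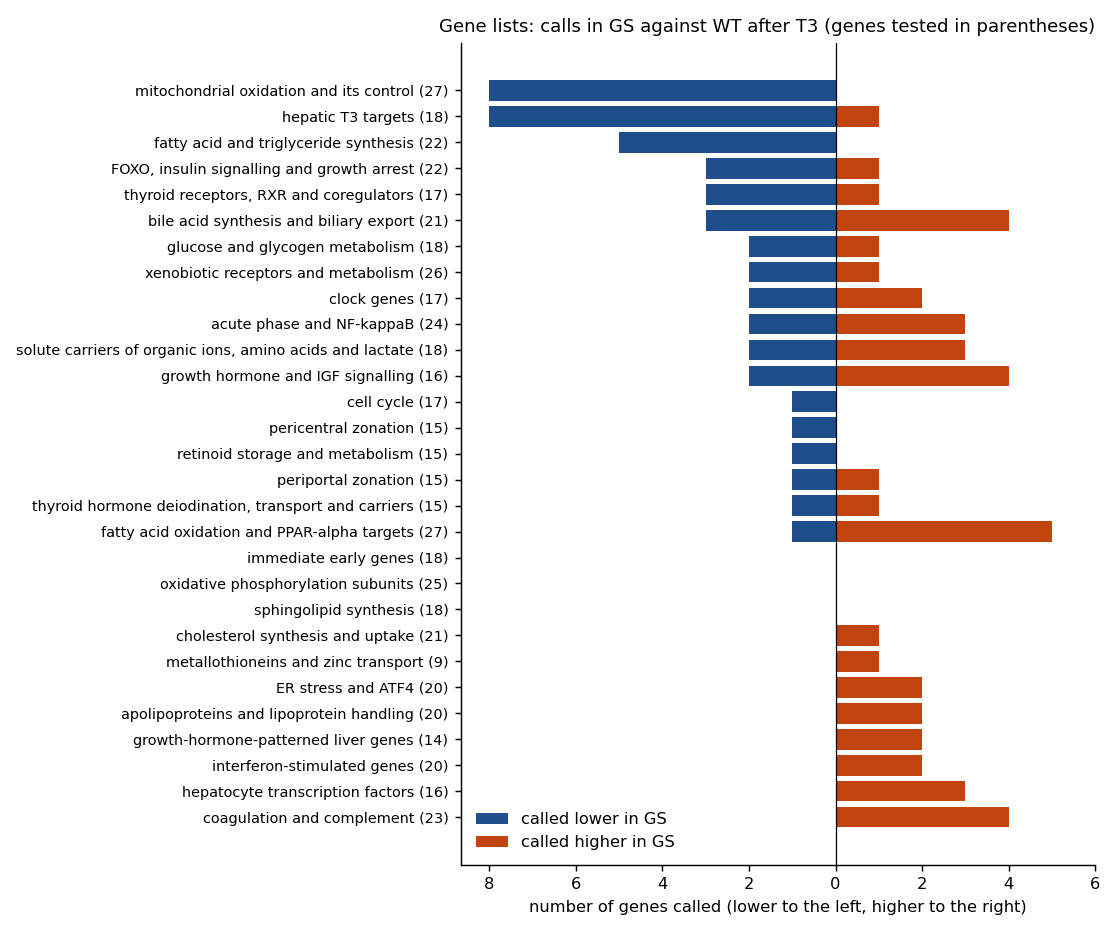
Number of genes called lower (left, blue) and higher (right, orange) in GS against WT after T3 in each gene list, with the number of genes tested in parentheses. The longest bars to the left are mitochondrial oxidation and hepatic T3 targets with 8 each; fatty acid oxidation has 5 higher and 1 lower.

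In growth hormone and IGF signalling 4 of 16 genes were higher (3.02% of all genes) and 2 lower (2.59%), with a median of 0.07. The transcription factors Stat5a and Stat5b carry the growth hormone signal. Their arrays measured 9.21, 9.05 and 9.18 (Stat5a) and 10.19, 10.14 and 10.24 (Stat5b) in WT against 8.40, 8.15 and 8.14, and 9.49, 9.53 and 9.42, in GS. The shortfalls were 0.92 ± 0.09 and 0.71 ± 0.08. Genes known to be induced through Stat5 were higher: Igf1 by 0.63 ± 0.11, Igfals, the carrier subunit of circulating IGF, by 0.87 ± 0.12, Cish by 1.28 ± 0.38 and Socs2 as above. T3 raised both Stat5 genes in Y147F livers (2.11 and 0.99) and lowered Igfals (-0.82), Igf1 (-0.65), Cish (-1.20) and Socs2 (-2.89), so each of the 6 lay on the side of less response. The Cish call was lost in all 6 fits without 1 array (limma adjusted p of 0.082 to 0.163).

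Bile acid genes went both ways, 4 of 21 higher (3.02% of all genes) and 3 lower (2.59%), with a median of 0.09. The nuclear receptor Nr1h4 (FXR) was higher by 0.61 ± 0.09, with GS at 11.15, 11.31 and 11.34 and WT at 10.71, 10.69 and 10.58. The canalicular exporters Abcb11 (0.37) and Abcb4 (0.51) were higher, as was Amacr (0.24), while the sterol exporter subunits Abcg5 (-0.61) and Abcg8 (-0.60) were lower beside Cyp7a1. In the 6 fits without 1 array Nr1h4 kept its call in all, Abcb4 in 3, Abcg5 in 1, and Abcb11, Amacr and Abcg8 in 0. Cholesterol synthesis and uptake had 1 of 21 genes called, Cyp51, higher by 1.11 ± 0.27 (limma adjusted p = 0.0203; lost without GS replicates 1 and 2 or WT replicates 2 and 3), and a list median of 0.26 after T3 and 0.50 after PBS. In fatty acid oxidation and PPARα targets 5 of 27 were higher (Acadvl, Bdh1, Fgf21, Acot3 and Angptl4) and Acot1 was lower by 0.94 ± 0.26. These were kept in 4 (Bdh1), 3 (Fgf21), 2 (Acot1) and 1 (Acadvl, Acot3 and Angptl4) of the 6 fits. Among coactivators Ppargc1b (-0.46) and Med1 (-0.29) were lower and Rxra, the partner of TRβ, was higher (0.35; kept in 1 of the 6 fits). The Ppargc1b and Med1 calls were lost in all 6 fits without 1 array, at limma adjusted p of 0.0662 to 0.166 and 0.0541 to 0.0871. With the mean of probe sets the calls of Bdh1, Rxra, Med1, Cyp51 and Ppargc1b were lost (limma adjusted p = 0.212, 0.187, 0.184, 0.0679 and 0.0504).

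The next lists had few calls each, against 2.59% lower and 3.02% higher over all genes. In insulin and FOXO signalling 3 of 22 genes were lower, Bmf, Gadd45a (-1.08 ± 0.26) and Bcl2l11 (-0.77 ± 0.19), and Irs1, the insulin receptor substrate, was higher by 0.82 ± 0.13 (10.29, 9.90 and 10.05 in GS, 9.29, 9.16 and 9.32 in WT). Clock genes had Per3 (-0.73) and Cry1 (-0.82) lower and Dbp (0.32) and Nfil3 (0.74) higher, of 17. In the acute phase list of 24, Cebpb (-0.90 ± 0.13) and Bcl3 were lower and Crp (0.37), Relb (0.45) and the chemokine Cxcl1 (0.93 ± 0.21) higher. Hepatocyte transcription factors had Hnf4a (0.43 ± 0.07), Foxa1 (0.62 ± 0.15) and Nr1h3 (0.28 ± 0.07) higher of 16 and 0 lower (median 0.26), and Onecut1 differed by 1.38 ± 0.41 with an adjusted p of 0.0542 in limma. Coagulation and complement had F12, Klkb1, Cfb and Mbl1 higher by 0.25 to 0.34, of 23. Interferon-stimulated genes had Iigp1 (0.70 ± 0.09) and Cxcl9 (1.01 ± 0.28) higher of 20, with a median of 0.40. The xenobiotic receptor Nr1i2 (PXR) was higher by 0.74 ± 0.13, and Gsta2 (-0.78) and Cyp2c55 (-0.54) lower, of 26. ER stress and ATF4 genes had Inhbe and Creb3l3 (0.43 ± 0.06) higher of 20. Calls in this paragraph that were lost in some fits without 1 array were those of Per3 (kept in 5 of 6), Crp and Foxa1 (4), Gadd45a, Klkb1 and Mbl1 (3), Bcl2l11, Cry1, Relb, F12 and Gsta2 (2), and Dbp, Nfil3, Nr1h3, Cfb, Cxcl9 and Cyp2c55 (1). With the mean of its probe sets Per3 differed by -0.34 and was not called (limma adjusted p = 0.109).

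The remaining lists had 0 to 5 calls, against the same shares over all genes. Immediate early genes and sphingolipid synthesis had none called of 18 each by limma, with 0 and 5 at an unadjusted p under 0.05. One gene was lower in each of cell cycle (Rrm2, -0.92), pericentral zonation (Oat, -0.42) and retinoid metabolism (Cyp26a1). Periportal zonation had Ctsc higher (0.91) and Aldh1b1 lower (-0.68), glucose metabolism Ppp1r3c higher (0.99) and Gpt and Tat lower (-0.27 and -0.53), and metallothioneins and zinc transport Slc30a10 higher (0.52). Solute carriers had Slc22a23, Slc6a6 and Slc17a2 higher and Slc25a45 and Slc38a2 lower, and lipoprotein genes had Apoa5 and Angptl4 higher. Growth-hormone-patterned genes had Slco1a1 and Nox4 higher of 14 (median 0.34), and T3 transport and deiodination had Dio1 lower and Slco1a1 higher of 15. Among these, Ctsc, Slc17a2, Slc25a45 and Apoa5 were called in all 6 fits without 1 array, Aldh1b1 and Slc38a2 in 4, Slc6a6 in 3, Rrm2, Gpt and Slc22a23 in 2, and Oat, Ppp1r3c, Tat, Slc30a10, Nox4 and Angptl4 in 1.

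Markers of other liver cells were set beside these lists. Of 11 hepatocyte markers Hnf4a was higher and Tat lower, and the mean level of the list was 13.54 to 13.69 in WT and 13.46 to 13.60 in GS. Kupffer cell and macrophage markers had 1 of 13 called, Clec4f (0.61 ± 0.18, limma adjusted p = 0.0497), 8 at an unadjusted p under 0.05 and a median of 0.43 after T3 against 0.01 after PBS. The mean level of these 13 markers was 8.48, 8.84 and 8.51 in WT and 8.69, 8.91 and 9.49 in GS. GS replicate 3 thus stood above the other arrays compared, and without it the median was 0.19. Among the Y147F arrays after PBS, which helped to choose the T3-lowered genes, the mean was 8.51, 9.48 and 8.73. After T3 it was 8.66, 8.67 and 8.75 there. The effect of these single high arrays on the 168 T3-lowered genes above WT was not tested. The Clec4f call was kept only without GS replicate 1 among the 6 fits without 1 array (adjusted p up to 0.23 in limma), and in 3 of 9 other settings. Timd4, a marker of resident Kupffer cells, measured 6.05, 6.51 and 7.44 in GS and 6.15, 5.77 and 5.72 in WT. The part of macrophage RNA in the differences was not tested. Sinusoidal endothelial (13), stellate (12), cholangiocyte (6), neutrophil (7), red cell (1) and adipocyte (2) markers had none called by limma, with 0, 1, 1, 0, 1 and 0 at an unadjusted p under 0.05, and lymphocyte markers only Ighm of 8. Of 3 pancreatic enzymes Cela1 was higher (0.43; kept in 2 of the 6 fits) and Cela2a lower (-0.98).

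The GS livers were also set against livers without TRβ. Between GS and KO after T3, which shares the GS arrays, 15 genes were called (0.106%), 8 higher (0.0565%) and 7 lower (0.0494%) in GS, with 973 at an unadjusted p under 0.05, and the count was 11, 8 and 3 without GS replicates 1, 2 and 3, 2, 9 and 30 without KO replicates 1, 2 and 3, and 0 when only those 6 arrays were fitted. KO against WT after T3, which shares the WT arrays, gave 981 genes (6.93%), 475 higher (3.36%) and 506 lower (3.57%), beside the 794 of GS against WT. For Dio1 the differences from WT were -3.02 in GS and -3.56 in KO, for Bcl3 -1.64 and -1.64, for Idh3a -1.19 and -0.99, and for Socs2 2.55 and 2.64. They were further apart for Cyp7a1 (-1.52 and -0.46), Cd24a (1.82 and 0.45) and Abtb2 (-1.58 and -0.99), 3 genes chosen after their values were seen, and GS against KO was not called for them (limma adjusted p = 0.637, 0.456 and 0.491). Among T3-raised genes the median difference from WT was -0.17 in GS and -0.20 in KO.

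Of the 15 genes that set GS apart from KO, Serpina4-ps1 had the largest difference. It measured 8.41, 8.99 and 8.41 in GS, 10.62, 11.55 and 10.25 in KO and 6.93, 6.80 and 7.48 in WT, so that GS was 2.20 below KO (limma adjusted p = 0.00997) and 1.54 above WT, the latter kept in 3 of the 6 fits without 1 array. Abhd6 measured 9.71, 9.73 and 9.72 in KO and 10.54, 10.29 and 10.60 in GS, 0.76 higher (limma adjusted p = 0.0238). Ttc39a was 1.30 lower in GS than in KO and 1.01 lower than in WT. Nkiras1, a regulator of NF-κB inhibitors, was 0.84 lower than in KO (limma adjusted p = 0.000147) and Dixdc1 0.98 higher (limma adjusted p = 0.00161). Against WT, neither gene was called in any of the 6 fits without 1 array. Their GS minus WT differences there were -0.26 to -0.23 for Nkiras1 and -0.12 to 0.07 for Dixdc1. Dapk2, Adamdec1, Zc3h12d, Slc41a2, Ptprg and Spg21 completed the higher genes (0.48 to 1.20), and Sorl1, Adat2, Treh and Acox2 the lower ones (-1.08 to -0.53).

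Genes around the mutated locus were counted as well, for GS against WT only. Calls of GS against KO or of KO against WT were not counted by position. Of 156 tested genes within 20 Mb of Thrb on chromosome 14, 7 were called after T3 (4.49%), against 19 of 318 on the rest of that chromosome (5.97%) and 5.6% elsewhere. They were Ap3m1, Arhgef3, Btd, Chdh, Fam25c, Nek4 and Pdhb, and only Fam25c was called the same way after PBS (0.93 after T3, 1.06 after PBS). Fam25c, Nek4 and Pdhb kept the T3 call in all 6 fits without 1 array, Btd in 3, Arhgef3 in 2, Ap3m1 in 1 and Chdh in 0.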

How the data were processed

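Liver RNA (200 ng per array) was measured on a mouse expression array of 45101 probe sets, 3 arrays in each of 8 groups. The authors deposited log2 values after RMA, which corrects background, normalises between arrays and summarises probes to probe sets, per the submitters' processing notes, which name no version. The authors' deposited log2 values of the 6 Y147F arrays come without the decimal point in most cells. The point was put back after the first digit, or after the second where the first is 1, and 0.517% of those cells, which read as calendar dates or start with 2, were set missing. The restoring step, tested on intact columns with the point removed, gave 0 wrong of 807552 values. A total of 34958 probe sets had 1 gene symbol in the platform annotation; the probe set with the highest mean stood for each of 18194 genes, and 14156 genes that reached the 40th percentile of an array in at least 3 arrays were tested. Of these 232 have a missing cell, which the fit leaves out. The number of arrays limits the precision.

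A model with 8 group means was fitted to the 24 arrays with limma 3.58.1 in R 4.3.3 (moderated test, two-sided, Benjamini-Hochberg over all 14156 genes, called at an adjusted p under 0.05); all adjusted p-values are from limma. The fit was tested on simulated data. T3-responsive genes came from the T3 minus PBS difference of the Y147F arrays in this model, whose estimate of spread all comparisons share. The members, gene lists and rules were chosen with earlier results of these data known. Named genes are those with the largest differences either way (15 each), the T3 targets, up to 4 of each list by smallest p, the T3-responsive genes closest to or beyond WT, the largest differences without a T3 response, those of opposite sign after PBS, and those that set GS apart from KO; further called members of a list, or of a class of 7 or fewer, were named after their values were seen. Alternatives changed the normalisation, filter, probe set rule, variance model, arrays fitted, the weight of each array, a term for titles numbered over 100000, the threshold, and the arrays kept.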

Additional observations from a re-analysis of the deposited data

Results flagged for a closer look

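For 16 of the 30 genes with the largest differences after T3, the GS minus WT difference after T3 was not the same as that after PBS by limma's test of the change between them (12 arrays, adjusted p under 0.05). Over all genes 2.92% were called by this test, 1.96% with a negative and 0.968% with a positive change. The 30 genes were chosen by the difference after T3, which is part of the change tested. A change of the same sign was therefore favoured in advance. The change was negative for 10 genes. It was -4.11 for Dio1, -3.03 for Frmd8, -2.75 for Bcl3, -2.02 for 9030619P08Rik and -1.89 for Abtb2. It was -1.77 for Ighm, -1.42 for Sned1, -1.35 for Cnmd, -1.28 for Anks1 and -1.02 for Fzd8. The change was positive for 6 genes: 3.42 for Socs2, 2.55 for Acot3, 2.34 for Cd24a, 2.16 for Inhbe, 2.10 for Scara3 and 1.57 for Etfbkmt.

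Probe sets without a single gene symbol, which no comparison above uses, gave 34 called of 4065 tested after T3 (0.836%), 19 higher and 15 lower in GS by limma.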

How the results depend on the processing

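No called difference of a named gene and no median of the T3-responsive sets changed sign under the alternatives run, while differences near 0 that were not called did, such as Me1 (-0.02 to 0.37 without 1 array) and Pim1 (-0.25 to 0.21). With a further demand of at least a 2-fold difference the counts became 68 after T3 (33 higher, 35 lower), 53 after PBS, 126 for the change between both, 7 for GS against KO and 87 for KO against WT; 27 T3-raised and 16 T3-lowered genes and 4 T3 targets remained off the WT level by that rule. Taking only genes with a 2-fold change in Y147F livers gave 70 and 22 genes with medians of -0.60 and 0.76. Array weights raised the genes higher after T3 to 642 and the PBS calls to 671. Fits of only the arrays compared gave 211 PBS calls, 647 for KO against WT and 0 for GS against KO; the latter was 6 in the 18 arrays without Y147F and 4 with the title covariate, which gave 439 for KO against WT. The median of T3-raised genes was -0.18 with the 60th percentile filter, -0.14 with the mean of probe sets and -0.20 with quantile normalisation, and that of T3-lowered genes 0.14 and 0.13 with the last pair. The cause was not tested. Higher calls were 53.8% of all, and 46.4% after quantile normalisation; lower calls also led with the title covariate and without 4 of the 6 arrays in turn, as given with the counts.

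Without 1 array in turn the ranges were 383 to 526 genes called after T3, 174 to 279 higher, 209 to 283 lower, 235 to 314 after PBS, 303 to 385 for the change between both, 2 to 30 for GS against KO, and 603 to 774 for KO against WT. T3-raised genes short of WT numbered 157 to 180 (median -0.18 to -0.18), T3-lowered genes above WT 86 to 121 (median 0.15 to 0.18), and T3 targets lower 5 to 5. Each such fit has 1 sample fewer. Of the 30 largest differences 18 were called in all 6 of these fits and all 9 other settings without a fold rule. The median without GS replicate 3 for Kupffer markers, and the alternatives for the count in either direction and for KO against WT, were chosen after seeing the data. No paired analysis was possible because the titles give the arrays no replicate numbers shared between groups. Dim genes near background, such as Dio1 in WT after PBS, limit the size of a fold there.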

Other observations

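Among genes whose mean difference after T3 was at least 1.2 on the log2 scale but not called by limma, 8 were found, and they were chosen after their values were seen. In several of them GS replicate 1 stood apart from GS replicates 2 and 3. Gdpd3, a phospholipase D family member, measured 6.09, 10.08 and 10.32 in GS and 5.81, 5.74 and 5.79 in WT after T3, a difference of 3.05 (limma adjusted p = 0.221). The gene was also high in part of other groups: KO after T3 gave 10.33, 10.38 and 6.02, KO after PBS 10.09, 11.05 and 5.87, GS after PBS 10.01, 6.01 and 5.97, and WT after PBS 5.87, 5.79 and 8.72. Crym, which binds T3 in the cytosol, measured 5.45, 7.81 and 8.58 in GS. Egfr, the epidermal growth factor receptor, measured 10.22, 12.21 and 11.93 in GS, and Hsd3b5, a steroid dehydrogenase of male liver, 8.59, 11.63 and 10.98.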
